A study of Homo sapiens with 12 samples.

Results

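Ls174T is a human colorectal cancer cell line in which a mutant, stabilized β-catenin keeps the Wnt pathway active. BRG1 (encoded by SMARCA4) is the ATPase that drives SWI/SNF complexes, which move nucleosomes along DNA. p300 (encoded by EP300) is an acetyltransferase that marks histones and transcription factors at active enhancers and promoters. Both proteins are known as coactivators of β-catenin, and both are also used by many other transcription factors. The comparison described here sets Ls174T cells depleted of BRG1 directly against Ls174T cells depleted of p300 and asks which genes differ between the depletions.

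Of the 12 dual-color Agilent Whole Human Genome arrays of the study, 2 make up this comparison, 1 with RNA from cells labeled si-BRG1 and 1 with RNA from cells labeled si-P300. Both cultures had received 15 nM siRNA for 72 h and no added Wnt3A, and each RNA was labeled with Cy3 and hybridized together with Cy5-labeled human reference RNA. The arrays lie on the same slide, whereas the si-control array of Ls174T lies on another slide, so the direct comparison needs no array from elsewhere. The same siRNAs were used in HEK293T cells, a human embryonic kidney line, which were given Wnt3A for 9 h in addition. With 1 array per condition, none of the differences below could be checked against replicates, and p-values are not reported.

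Values are log2 ratios of sample to reference RNA, and a difference is the value of the si-BRG1 array minus that of the si-P300 array. A positive difference therefore says that a transcript was more abundant after BRG1 depletion than after p300 depletion, and it does not say which depletion moved it. For orientation, the values of the si-control array are given beside both, with the limit that slide and condition cannot be told apart there. The error after ± is the program error of the Feature Extraction software, combined over both arrays, and it leaves out the spread between cultures. Of the 43376 features on each array that are not control spots, 30002 were bright enough on both arrays to be compared.

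The arrays were of similar quality. The median sample signal was 3.47 times the local background on the si-BRG1 array and 3.24 times on the si-P300 array, and no feature was saturated. Probes printed in 10 spots had a median SD between spots of 0.04 on both arrays. All 14 measured markers of colon epithelium, among them CDX2, VIL1, EPCAM and LGALS4, were well above background in the sample channel on both arrays, and their median difference was 0.16. Of 13 measured markers of other cell types, 10 were also well above background on both arrays, so detection alone does not set the marker lists apart. Among the 13, PECAM1 differed by more than 2-fold with a measured signal on the si-BRG1 array. COL3A1, also past 2-fold by ratio, was at background on both arrays, and no fold is given for it. Since the samples are bulk RNA, fewer cells of a type and less RNA per cell cannot be told apart.

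The siRNA targets were read first. SMARCA4 was at 0.19 on the si-control array, 0.42 on the si-P300 array and -2.22 on the si-BRG1 array. The difference was -2.64 ± 0.38, a 6.25-fold lower level in BRG1-depleted cells, and the 3 probes of the gene gave -2.86, -2.63 and -2.44. EP300 was dimmer throughout. It stood at -1.15 on the si-control array, -1.21 on the si-BRG1 array and -2.09 on the si-P300 array, a difference of 0.88 ± 0.44. Its signal was not well above background on the si-P300 array, so only a lower bound can be given for the level in BRG1-depleted cells. The bounds of its 2 probes were 0.23 and 1.32 on the log2 scale, with a mean of 1.71-fold. Under normexp background correction followed by loess the difference was 0.136. With outlying local backgrounds replaced before that step it was 0.223. The 7 usable spots of one EP300 probe averaged 1.26 and the single spot of the other gave 0.50. Both targets thus differed in the direction of their labels, with a smaller and less well measured difference for EP300. The relatives of both targets stayed under 2-fold, with SMARCA2, the other SWI/SNF ATPase, at -0.28 ± 0.34 and CREBBP, the p300 paralogue, at 0.07 ± 0.29. The other 22 measured SWI/SNF subunits ranged from -0.57 (SMARCD3) to 0.40 (DPF2).

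Over all features, 380 (1.27% of those compared) lay past 2-fold toward BRG1-depleted cells, with the higher level there, and 304 (1.01%) lay past 2-fold toward p300-depleted cells. Counted over 13991 genes with a symbol, 183 (1.31%) were higher and 100 (0.715%) lower, and the median difference was -0.02. A difference above 0 was found in 47.1% of these genes. These shares are the background for the counts in gene lists below. The genes were spread along the whole range of ratios, as the plot of both arrays shows. In 95 of the 183 higher genes and 42 of the 100 lower ones, every measured probe had a sample signal well above background on both arrays. Dim genes were therefore common among the differences: 56.4% of the features past 2-fold, against 6.66% of all features compared, had a sample signal close to background on at least 1 array. The gene counts also depended on the processing. Under normexp background correction followed by loess, 32 of the 283 genes past 2-fold stayed past it and 67 changed sign.

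**Figure D1:**
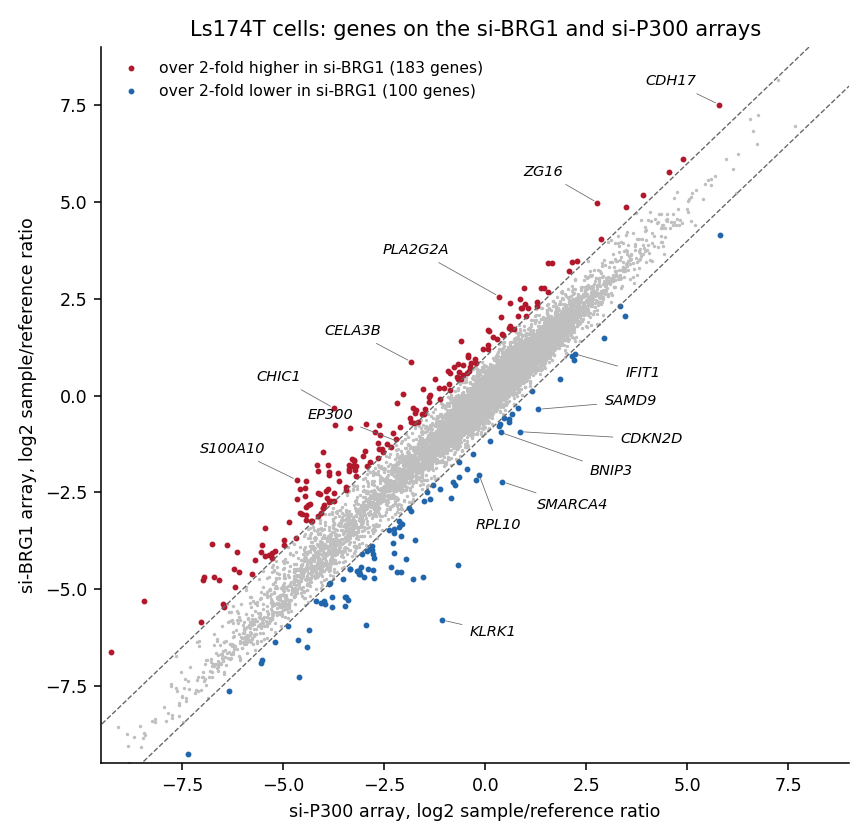
Log2 sample/reference ratio of each gene on the si-P300 array (horizontal) and the si-BRG1 array (vertical) of Ls174T cells, 1 array each. Dashed lines mark a 2-fold difference, and the 183 genes above them and the 100 genes below them are colored. SMARCA4 lies far below the lower line and EP300 just inside the upper one.

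The sample and reference channels were also compared separately between both arrays, to see in which channel differences lie. In 27922 features with both channels well above background on both arrays, the reference channel, which held the same reference RNA on both arrays, differed with an SD of 0.15 and the sample channel with an SD of 0.36. Past 2-fold were 49 features (0.175%) in the reference channel and 462 (1.65%) in the sample channel, as the histogram of both channels shows. Among the 15 largest differences in each direction, the ratio and the sample channel alone were farthest apart for CBX2, MYH1 and CDH17. CBX2, a Polycomb subunit, had a ratio difference of 1.87 but -0.21 in the sample channel alone, so its direction turned. MYH1, a skeletal muscle myosin, had -1.66 by ratio and -0.45 in the sample channel alone, and CDH17 had 1.73 and 2.79. The reference channel was not well above background on either array for CDH17, MYH1 and MUC13, and on the si-BRG1 array for CBX2, so the ratios of these genes rest on a channel at background.

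**Figure D2:**
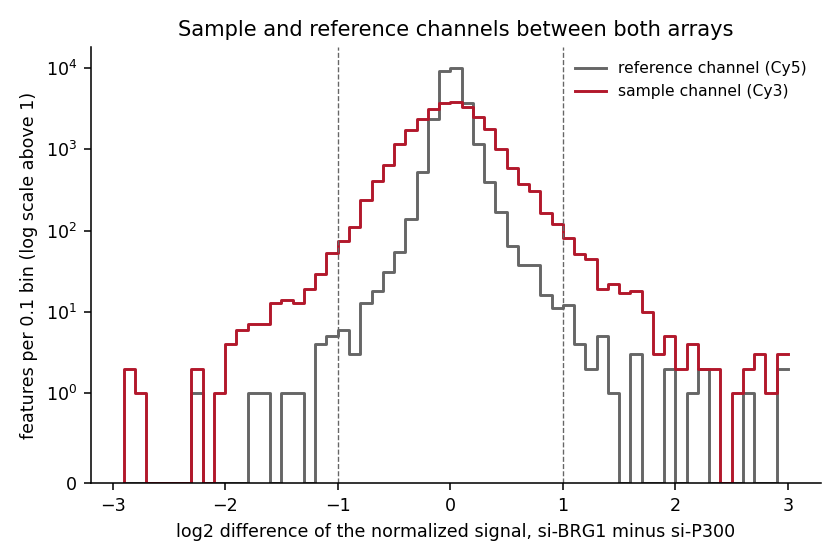
Number of features per 0.1 log2 bin of the difference between the si-BRG1 and si-P300 arrays, for the reference channel and the sample channel, over 27922 features with both channels well above background. The vertical axis is logarithmic above 1, values past the axis are put in the outermost bins, and dashed lines mark 2-fold. The sample channel is wider, with 462 features past 2-fold against 49.

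Among genes with a sample signal well above background on both arrays, the 15 largest differences toward BRG1-depleted cells included ZG16, PLA2G2A, ACSL5, GPX2, DDC and CDH17. ZG16, a lectin secreted by goblet cells, was at 5.08 on the si-control array, 4.98 on the si-BRG1 array and 2.78 on the si-P300 array, a difference of 2.21 ± 0.62 (4.62-fold). PLA2G2A, a secreted phospholipase known from Paneth cells, stood at 3.38 on the si-control array, 2.56 on the si-BRG1 array and 0.35 on the si-P300 array, a difference of 2.21 ± 0.38. In both, the si-P300 array was the one far from si-control. A like order held for ACSL5, an acyl-CoA synthetase of fatty acid metabolism (1.29, 1.42 and -0.61, difference 2.03 ± 0.33), for GPX2, the gastrointestinal glutathione peroxidase (2.57, 2.40 and 0.62, difference 1.78 ± 0.37), and for DDC, the decarboxylase that makes dopamine and serotonin (3.25, 2.79 and 0.95, difference 1.84 ± 0.40). CDH17, the liver-intestine cadherin, was at 7.46 on the si-control array, 7.52 on the si-BRG1 array and 5.79 on the si-P300 array, a difference of 1.73 with the large program error of 1.00. The membrane-associated proteins S100A10, the partner of annexin A2 (difference 2.48 ± 0.56), and ANXA1 (annexin A1; 1.66 ± 0.70), were also higher. In S100A10 the si-control value of -2.94 lay between -2.18 on the si-BRG1 array and -4.66 on the si-P300 array.

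CELA3B, a pancreatic elastase, had the largest difference of this group and the opposite pattern. It was at -1.29 on the si-control array, 0.87 on the si-BRG1 array and -1.83 on the si-P300 array, a difference of 2.70 ± 0.35 (6.49-fold), so that the si-BRG1 array was the one apart. HGD, an enzyme of tyrosine breakdown, followed with -3.17, -1.98 and -3.87 on the same 3 arrays and a difference of 1.90 ± 0.50. The same held for genes that were not well above background on the si-P300 array and for which only a lower bound can be given, the lower of the bound in the normalized sample channel and the fold by ratio. PECAM1, an adhesion molecule of endothelium and blood cells, was at -4.25 on the si-control array, -0.83 on the si-BRG1 array and -3.34 on the si-P300 array and was at least 5.68-fold higher in BRG1-depleted cells. Bounds were at least 4.68-fold for IGSF1, an immunoglobulin-superfamily membrane protein, at least 3.90-fold for CHIC1 and at least 3.63-fold for NELL2, a secreted neural glycoprotein. Their si-control values of -2.89 (IGSF1), -3.51 (CHIC1) and -4.29 (NELL2) lay near the si-P300 values of -2.95, -3.74 and -4.02, so that again the si-BRG1 array stood apart. PECAM1 was not accompanied by the other endothelial marker measured, VWF, which differed by 0.25 ± 0.33.

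**Figure D3:**
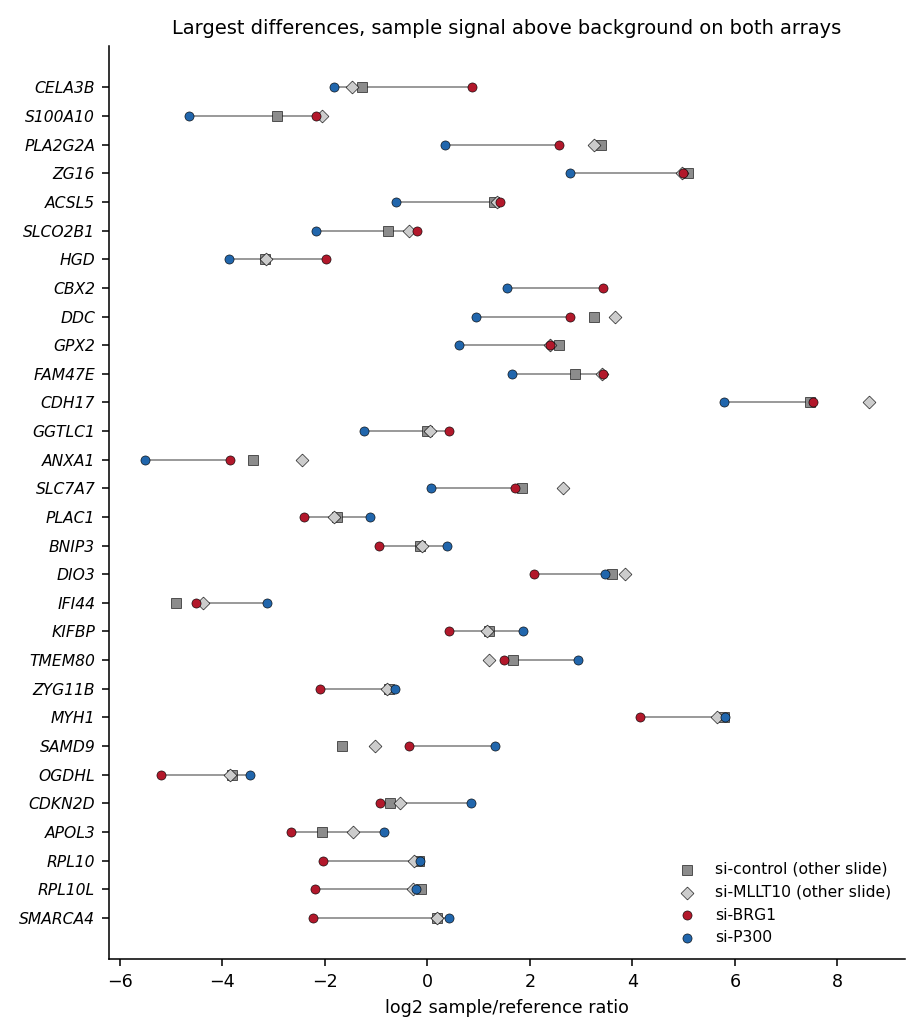
Log2 sample/reference ratios of the 15 genes with the largest difference in each direction, among genes well above background on both arrays, on the si-BRG1 and si-P300 arrays of one slide and the si-control and si-MLLT10 arrays of another, 1 array each. Lines join si-BRG1 and si-P300. For ZG16, ACSL5 and GPX2 the si-control and si-BRG1 points nearly coincide, while for RPL10 and ZYG11B the si-control and si-P300 points do.

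Toward lower levels in BRG1-depleted cells, RPL10, a protein of the large ribosomal subunit, stood out after SMARCA4 itself. It was at -0.17 on the si-control array, -0.15 on the si-P300 array and -2.04 on the si-BRG1 array, and its 4 probes gave differences between -1.95 and -1.80, with a mean of -1.89 ± 0.35. The retrogene RPL10L gave -1.97 ± 0.35, and since its sequence is nearly identical to that of RPL10 its single probe may read RPL10. None of the other 84 ribosomal protein genes measured, a group chosen after the values were seen, was past 2-fold, and their differences ran from -0.42 to 0.84. ZYG11B, a substrate adaptor of a ubiquitin ligase, gave -1.45 ± 0.36 with 3 probes, from -0.76 on the si-control array, -0.64 on the si-P300 array and -2.09 on the si-BRG1 array. KIFBP, which binds kinesins, gave -1.44 ± 0.34 and DIO3, which inactivates thyroid hormone, -1.40 ± 0.48.

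In other genes the si-P300 array was the one apart from si-control. CDKN2D (p19INK4d), an inhibitor of the cyclin D kinases CDK4 and CDK6, was at -0.74 on the si-control array, -0.93 on the si-BRG1 array and 0.85 on the si-P300 array, a difference of -1.78 ± 0.31 (3.43-fold). Its relative CDKN2C (p18INK4c) was at -0.46, -0.48 and 0.67 on the same arrays, a difference of -1.16 ± 0.30. Within the list of 21 G1 cyclins and CDK inhibitors these 2 were the only genes past 2-fold, against 0.715% of all genes that much lower. The list median was -0.26, and CDKN1A (p21) was at 0.55 ± 0.33. Among genes at background in BRG1-depleted cells, KLRK1, a receptor of natural killer and T cells, was at least 10.6-fold lower, TMEM255A at least 5.24-fold and BTK, a kinase of B cells, at least 3.80-fold. Under normexp background correction followed by loess all 3 turned to the other sign, at 0.142 (KLRK1), 0.0119 (TMEM255A) and 0.141 (BTK). With outlying local backgrounds replaced before that step, none of the 3 changed sign. KLRK1 was at -5.45 on the si-control array, -5.80 on the si-BRG1 array and -1.06 on the si-P300 array.

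Counts over all features followed both patterns. Of 361 features higher in BRG1-depleted cells that were also measured on the si-control array, 207 had a si-control value nearer to si-P300 and 154 nearer to si-BRG1. Of 295 lower features, 195 had a si-control value nearer to si-BRG1 and 100 nearer to si-P300.

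Interferon-stimulated genes were the list with the lowest median. These genes encode antiviral proteins and are switched on by interferons through a transcription factor complex that contains IRF9. Of 19 measured, 5 (IFIT1, IFIT2, IFIT3, IFI6 and IFI44) were more than 2-fold lower in BRG1-depleted cells, none was more than 2-fold higher and 18 lay below 0, with a median of -0.55 against -0.02 over all genes. Over all genes, 0.715% were more than 2-fold lower and 47.1% lay above 0. IFIT1 was at 0.47 on the si-control array, 1.08 on the si-BRG1 array and 2.21 on the si-P300 array, a difference of -1.13 ± 0.37. IFI6 was at 0.10, 0.91 and 2.19 on these arrays, a difference of -1.28 ± 0.36. On both genes the order of the arrays was the same, with si-control lowest and si-P300 highest. IFI44 gave -1.40 ± 0.59, IFIT3 -1.19 ± 0.36 and IFIT2 -1.03 ± 0.31, while IRF9 gave -0.76 ± 0.33. SAMD9, an antiviral gene outside the list, differed by -1.67 ± 0.34 over 2 probes, and its neighbor SAMD9L was at least 3.99-fold lower. Under normexp background correction the sign turned for IFIT3 (0.0116) and SAMD9L (0.220). With outlying local backgrounds replaced before that step, neither sign turned. The si-MLLT10 array of the other slide stood between si-control and si-P300 for IFIT1 (0.90) and IFI6 (0.76), close to the si-BRG1 values.

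Proximal promoters of the interferon-stimulated genes past 2-fold are shown because these genes moved together and share a response element. The sequences are those of RefSeq on GRCh38.p14, 5′ to 3′ on the strand of the gene and ending at the base before its annotated start. They cover chr1:78649689-78649788 (IFI44, plus strand), chr1:27672193-27672358 (IFI6, minus strand), chr10:89327831-89327996 (IFIT3, plus strand) and chr10:89392497-89392622 (IFIT1, plus strand). No entry for IFIT2 was used. Capitals mark the core of the interferon-stimulated response element, GAAA followed after any 2 bases by GAAA, on either strand, so that TTTC, any 2 bases and TTTC is the same motif read backward.
IFI44: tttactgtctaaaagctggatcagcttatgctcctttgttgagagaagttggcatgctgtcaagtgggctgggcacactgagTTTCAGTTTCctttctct
IFI6: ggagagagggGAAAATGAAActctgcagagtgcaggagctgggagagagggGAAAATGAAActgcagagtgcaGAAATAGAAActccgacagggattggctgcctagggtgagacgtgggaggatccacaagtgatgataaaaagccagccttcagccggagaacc
IFIT3: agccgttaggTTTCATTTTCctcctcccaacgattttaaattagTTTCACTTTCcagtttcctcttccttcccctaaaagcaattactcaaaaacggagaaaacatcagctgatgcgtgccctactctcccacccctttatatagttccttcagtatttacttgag
IFIT1: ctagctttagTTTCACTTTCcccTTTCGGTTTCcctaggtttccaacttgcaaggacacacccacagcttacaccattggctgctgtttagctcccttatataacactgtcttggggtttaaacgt
All 4 held the motif within the 250 bases before the start. It was found in 9 of the 13 measured list members with a promoter entry and in 3.07% of 27305 promoters of the same length. Because the list was made of known interferon-stimulated genes, this share says nothing about the difference between the depletions. A match describes the letters only and is not a binding site measured here.

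Hypoxia genes, the targets of the HIF transcription factors that shift cells to glycolysis and limit mitochondrial work, had a median difference of -0.52. Of 24 measured, all well above background, BNIP3 and ANKRD37 were more than 2-fold lower in BRG1-depleted cells and none was more than 2-fold higher. Among all genes 0.715% were more than 2-fold lower, and 47.1% lay above 0. Of the whole list 23 had a value below 0, some of them smaller than the program error, such as ALDOA at -0.07 ± 0.29 and CITED2 at -0.14 ± 0.33. BNIP3, which directs mitochondria to autophagy, was at -0.14 on the si-control array, -0.95 on the si-BRG1 array and 0.38 on the si-P300 array, a difference of -1.33 ± 0.30. ANKRD37 was at -1.38, -2.91 and -1.88 on these arrays, a difference of -1.03 ± 0.43. EGLN3, a prolyl hydroxylase that marks HIF for degradation, reached -0.97 ± 0.30, DDIT4 -0.80 ± 0.34, HK2 (hexokinase 2) -0.75 ± 0.32 and CA9 (carbonic anhydrase 9) -0.55 ± 0.30. The median of the list relative to the si-control array was -0.68 in BRG1-depleted and -0.17 in p300-depleted cells, 2 values that share that array. The sequences before the start of BNIP3 (chr10:131981924-131982067, minus strand) and ANKRD37 (chr4:185396669-185396840, plus strand), the members past 2-fold, are printed with ACGTG, a form of the core of the hypoxia response element, in capitals. CACGTG holds it on both strands, in overlapping positions.
BNIP3: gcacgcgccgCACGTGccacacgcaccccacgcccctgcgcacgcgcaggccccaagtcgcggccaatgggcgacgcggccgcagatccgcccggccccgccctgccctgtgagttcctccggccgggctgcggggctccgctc
ANKRD37: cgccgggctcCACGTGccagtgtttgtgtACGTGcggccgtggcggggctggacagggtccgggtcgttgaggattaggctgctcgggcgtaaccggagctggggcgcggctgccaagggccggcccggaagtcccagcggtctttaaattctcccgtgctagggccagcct
ACGTG was present in 13 of 21 list members with a promoter entry and in 18.7% of all promoters of that length. The list was made of known HIF targets, so this share too says nothing about the difference between the depletions.

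Proliferation genes shifted less, with no member past 2-fold. DNA replication genes (22 measured) had a median of -0.35 and 18 below 0, with MCM3, a subunit of the replicative helicase, at -0.57 ± 0.30. Mitosis genes (19 measured) had a median of -0.36 and 17 below 0, with CENPF, a kinetochore protein, at -0.67 ± 0.31 and BIRC5 (survivin) at -0.62 ± 0.30. Ribosome biogenesis genes went the other way, with a median of 0.35 and 18 of 19 above 0, led by RRP12 at 0.75 ± 0.30. Cholesterol synthesis genes lay below 0 in 19 of 19 cases with a median of -0.24, and SREBF1, a transcription factor of lipid synthesis, reached -0.62 ± 0.32. None of these list members passed 2-fold, and the 15 housekeeping genes had a median of -0.21, about as far from 0 as the cholesterol list. Beside the counts above and below 0, the share of all genes above 0 was 47.1%.

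Targets of p53, which halts the cell cycle and starts repair or death after damage, had a median difference of 0.27 over 23 measured. Of these 20 had a value above 0, against 47.1% of all genes. Several of the 20 values were smaller than the program error, such as BAX at 0.08 ± 0.30. Among all genes 1.31% were more than 2-fold higher. The 3 members past 2-fold, with the higher level in BRG1-depleted cells, were PHLDA3, an inhibitor of AKT, at 1.16 ± 0.32, GDF15, a secreted stress cytokine, at 1.14 ± 0.31, and GADD45A, a growth arrest protein, which was 2.14-fold higher. PHLDA3 was at -0.07 on the si-control array, 1.45 on the si-BRG1 array and 0.29 on the si-P300 array, so that the si-BRG1 array stood apart. GADD45A was at -0.61, -0.47 and -1.57, and there the si-P300 array stood apart.

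**Figure D4:**
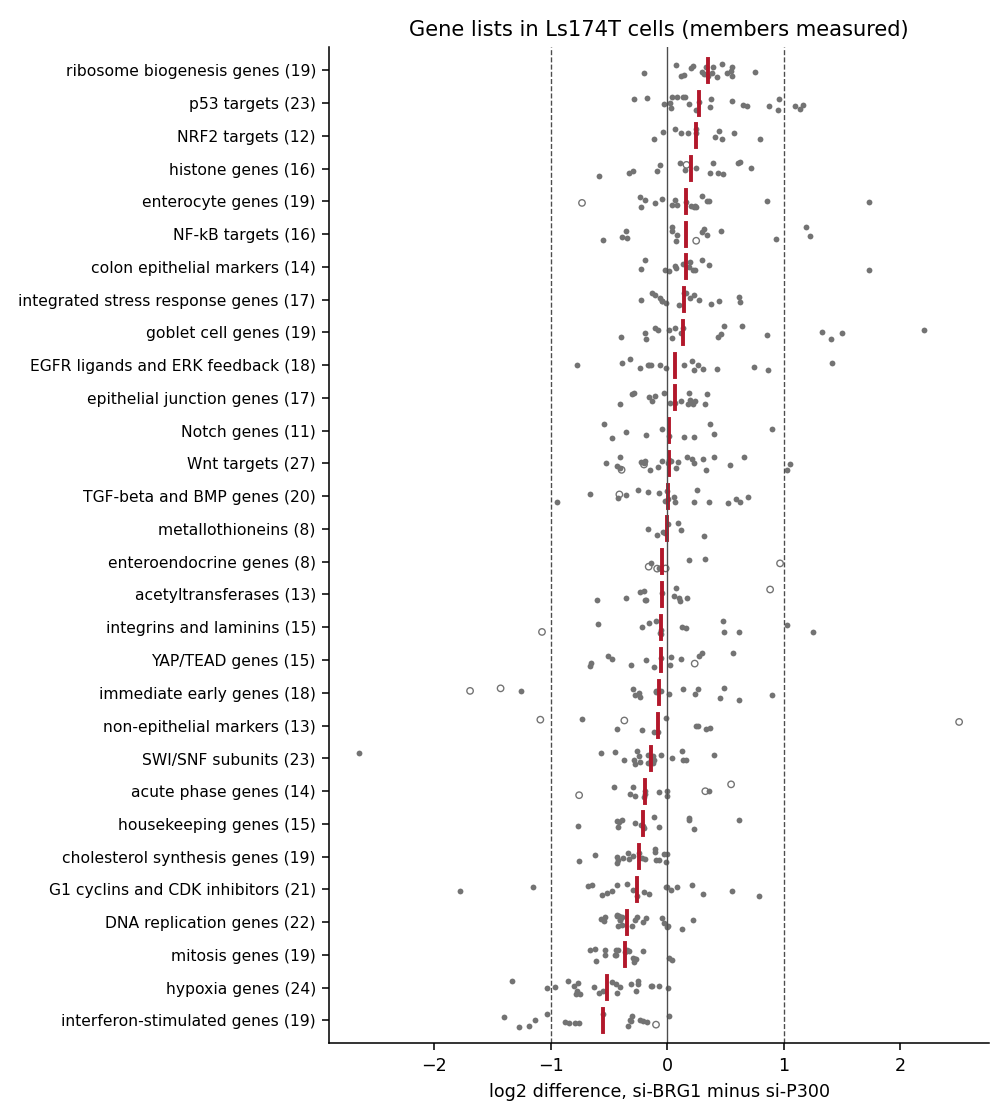
Log2 difference, si-BRG1 minus si-P300, of each measured member of 30 gene lists (dots; open where the sample signal was not well above background on both arrays), with the list's median as a red bar and the number measured in brackets. Dashed lines mark 2-fold. Hypoxia and interferon-stimulated genes lie lowest, with medians of -0.52 and -0.55, and ribosome biogenesis genes highest, with 0.35.

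Wnt targets had no common direction. Of 27 measured, 2 were more than 2-fold higher in BRG1-depleted cells, against 1.31% of all genes, and none was more than 2-fold lower. The median was 0.01 by ratio and 0.18 in the sample channel alone. CRIPTO, a coreceptor of NODAL signaling, was at 2.46 on the si-control array, 2.07 on the si-BRG1 array and 1.02 on the si-P300 array, a difference of 1.05 ± 0.36. CD44, a hyaluronan receptor, was at -1.61, -1.62 and -2.64, a difference of 1.03 ± 0.41. MYC, which drives growth and ribosome production, was at 0.07 on the si-control array, -0.53 on the si-BRG1 array and -1.19 on the si-P300 array, a difference of 0.66 ± 0.31. By ratio, the intestinal stem cell genes differed by less than their program error, with LGR5 at 0.33 ± 0.47, ASCL2 at -0.15 ± 0.80, SMOC2 at -0.20 ± 0.94, EPHB2 at 0.17 ± 0.48 and EPHB3 at -0.19 ± 0.69. In the sample channel alone LGR5 was at 1.01, EPHB2 at 0.80, SMOC2 at 0.66 with the sign turned, ASCL2 at -0.55 and EPHB3 at -0.47. By ratio the same was true of AXIN2, a negative regulator of the pathway, at 0.21 ± 0.41, and of RGMB, a BMP coreceptor, at 0.00 ± 0.42.

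By ratio, goblet cell genes split. Besides ZG16, the disulfide isomerase AGR3 (2.84-fold), the membrane mucin MUC13 (1.41 ± 0.69) and the protease inhibitor SPINK1 (1.33 ± 0.31) were more than 2-fold higher in BRG1-depleted cells. The share of all genes that much higher was 1.31%. The main secreted products TFF3 and MUC2 were at 0.02 ± 0.56 and 0.13 ± 0.30, and ATOH1, the transcription factor that specifies secretory cells, at -0.08 ± 0.58. Over the 19 measured the median was 0.13 by ratio and 0.50 in the sample channel alone. Of 19 measured enterocyte genes, CDH17 was the only one past 2-fold, with a list median of 0.16.

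Growth factor and cytokine genes gave a few further differences. AREG, an EGF receptor ligand, was at 1.18 on the si-control array, 0.99 on the si-BRG1 array and -0.43 on the si-P300 array, a difference of 1.42 ± 0.30. The neutrophil-attracting chemokines CXCL1 (1.23 ± 0.32) and CXCL2 (1.19 ± 0.30) were higher in BRG1-depleted cells. Among the 16 NF-kB targets measured no others were past 2-fold, and 1.31% of all genes were more than 2-fold higher. For AREG and both chemokines the si-control value lay nearer to si-BRG1. Of 18 immediate early genes measured, EGR1, EGR2 and EGR3 were more than 2-fold lower by ratio, against 0.715% of all genes. The list as a whole had no common direction, with a median of -0.07, 8 values above 0 and JUN at 0.90 ± 0.34. EGR1, an immediate early transcription factor, was lower at -1.26 ± 0.46. It was at -2.89 on the si-control array, -3.31 on the si-BRG1 array and -2.05 on the si-P300 array. EGR2 was at least 2.70-fold lower, although its sign turned under normexp background correction (0.0265). That sign did not turn with outlying local backgrounds replaced first. EGR3 was at background on both arrays, so that no fold is given for it. ITGA6, the integrin α6 subunit of hemidesmosomes, was higher by 1.25 ± 0.35.

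In HEK293T cells with Wnt3A the same subtraction was made on arrays that share none with Ls174T. Over 26632 features measured on all 4 arrays, Pearson's r between the differences of both lines was 0.135, given as a description across features that share probes and scanner settings. Of the features past 2-fold in Ls174T, 54.4% had the same sign in HEK293T, against 54.5% of all features. More than 2-fold higher in both lines were 41 features, which make 12.7% of those higher in Ls174T and 5.47% of those higher in HEK293T. More than 2-fold lower in both were 43, or 15.6% and 6.01%. Opposite directions were also found. Of 324 features higher in Ls174T, 19 were more than 2-fold lower in HEK293T. Of 275 features lower in Ls174T, 28 were more than 2-fold higher in HEK293T. In HEK293T, 2.96% of all features compared were past 2-fold upward and 2.69% downward.

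Genes lower in both lines included the targeted SMARCA4, with -3.91 in HEK293T, and RPL10, with -3.57 in HEK293T against -1.89 in Ls174T. SAMD9 (-1.08 ± 0.38 in HEK293T), IFI44 (-2.04 ± 0.99), TMEM80 (-1.16 ± 0.34) and KIFBP (-1.01 ± 0.33) were past 2-fold in both lines as well. Higher in both lines were GADD45A (1.52 ± 0.30 in HEK293T) and CRIPTO (1.22 ± 0.99). In HEK293T the CRIPTO ratios were -6.3 (si-BRG1) and -7.5 (si-P300) and those of IFI44 -7.9 and -5.9. Both genes were thus far below the reference RNA there, and their program errors were large. EP300 had a far larger difference in HEK293T, at 3.18. Most large Ls174T differences were not shared, for instance CELA3B (-0.31 in HEK293T), CDKN2D (0.08) and IFIT1 (0.04). The hypoxia list had a median of -0.32 in HEK293T with 2 of 24 past 2-fold downward, the cholesterol list -0.68 with 6 of 19 past 2-fold downward, and the interferon list -0.12 with 2 of 18 past 2-fold in each direction. Opposite in sign to Ls174T were, among others, the medians of the mitosis list (0.26), the G1 list (0.20) and the enterocyte list (-0.13). The p53 (0.35), DNA replication (-0.05) and ribosome biogenesis (0.09) lists kept the sign of Ls174T. For single genes in HEK293T, 2.17% were past 2-fold upward and 2.61% downward. The differences between the lines were not tested.

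**Figure D5:**
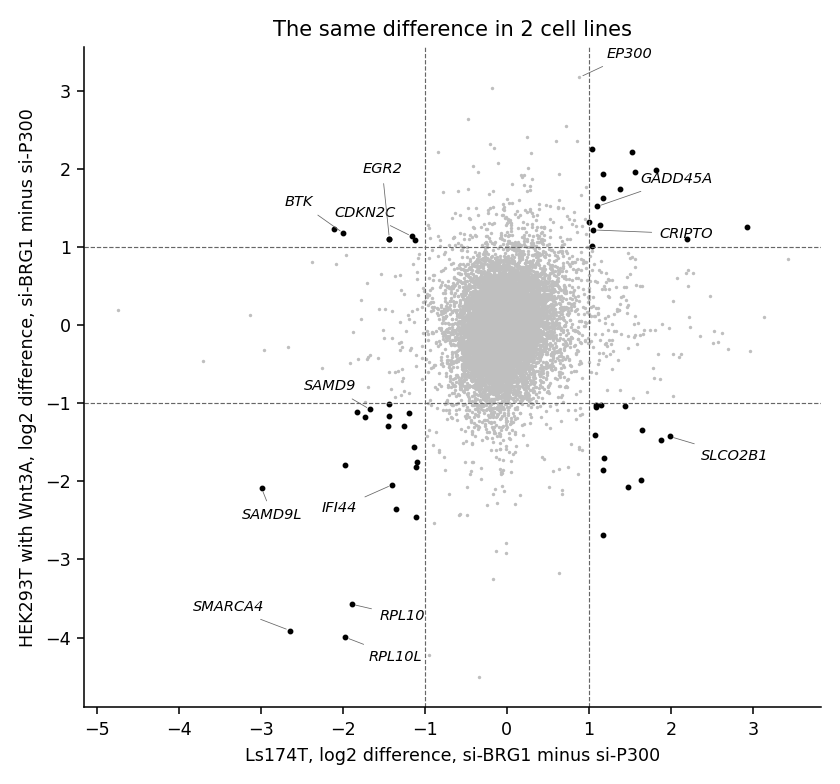
Log2 difference, si-BRG1 minus si-P300, of each gene in Ls174T cells (horizontal) and in HEK293T cells with Wnt3A (vertical), 1 array per condition. Dashed lines mark 2-fold, and genes past 2-fold in both lines are black. SMARCA4 and RPL10 lie far down in both lines, and EP300 lies highest in HEK293T.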

How the data were processed

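RNA from Ls174T and HEK293T cells was measured on 12 dual-color arrays, with sample RNA in Cy3 and reference RNA in Cy5 on all arrays used here. Scanned images were quantified by the authors in Agilent Feature Extraction (version 10.5.1.1 in the file headers, 8.5.1.1 in the submitters' processing notes). For each channel of a feature the authors deposited intensities before correction (median signal, local background) and after it (processed signal, corrected by the program for background and dye). The log10 ratios, also deposited, divide the processed Cy5 signal by that of Cy3, and the deposited table of values for both arrays equals them. They were sign-turned and converted to log2.

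Control spots and outlier features were left out, and features were kept where the median signal exceeded 2-fold the local background in either channel on both arrays. Kept spots were averaged per probe and probes per gene. A probe was well above background where this flag was set for most of its spots. Thresholds were 2-fold, and with 1 array per condition no test was made, so the number of arrays limits the precision. Lower bounds use the sample channel after quantile normalization of average intensities in limma 3.58.1 (R 4.3.3) and the lowest signal that was well above background, and the fold by ratio is given instead where it is lower. The files give RefSeq accessions, of which 27612 of 29084 (94.9%) were matched to a symbol in a RefSeq gene table (GRCh38.p14), and no gene coordinates of the array are given. The steps were tested on simulated data.

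The genes named are the siRNA targets and their paralogues, the 15 largest differences per direction whose every probe was past 2-fold and well above background, the 5 largest bounds per direction, in each of 30 lists the members past 2-fold (or the 2 largest), and 8 Wnt targets named by the study. Genes given beyond these, among them VWF, IRF9, EGLN3, DDIT4, HK2, CA9, ALDOA, CITED2, BAX, CDKN1A, DPF2, TFF3, MUC2, ATOH1, REG4 and SPINK4, were chosen after their values were seen. Some genes that the rule names are not reported here. The comparison, the members and the lists were chosen with earlier results of these data known. The 12 alternatives tried are in the closing section.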

Additional observations from a re-analysis of the deposited data

Results flagged for a closer look

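In 4 of the named genes the ratio difference was past 2-fold in both cell lines in opposite directions, and the difference between the lines was not tested. The values come from 1 array per condition, and HEK293T cells had received Wnt3A. CDKN2C was the only one of the 4 with a sample signal well above background on all 4 arrays, and it was lower in BRG1-depleted Ls174T cells (-1.16 ± 0.30) and higher in HEK293T cells (1.14). SLCO2B1, an organic anion transporter, was higher in BRG1-depleted Ls174T cells (1.98 ± 0.37) and had a ratio difference of -1.42 in HEK293T cells, where its sample signal was not well above background on either array. EGR2 was at least 2.70-fold lower in BRG1-depleted Ls174T cells, where it was not well above background, and at 1.11 in HEK293T cells. BTK was at least 3.80-fold lower in BRG1-depleted Ls174T cells, where it was not well above background, and its ratio difference in HEK293T was 1.18, with a signal not well above background on the si-P300 array. Under normexp background correction the Ls174T sign turned for EGR2 (0.0265) and BTK (0.141). With outlying local backgrounds replaced before that step, neither sign turned.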

How the results depend on the processing

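No paired analysis was possible because each condition has 1 array and the labels give no replicate numbers. For the same reason no array could be left out. Of the 12 alternatives, 5 left every named gene past 2-fold past it with the same sign. They were the deposited table, centering on the median, quantile normalization of average intensities, keeping outlier features, and the brightest probe of each gene. The deposited table holds the same ratios, and quantile normalization of average intensities leaves ratios unchanged, so neither could give another result. Centering only took away the median difference of -0.02. The 380 features higher and 304 lower in BRG1-depleted cells became 113 and 83 where both channels had to exceed 2-fold the background, 175 and 123 where the sample channel had to be well above background on both arrays, 1426 and 1080 without a filter on signal, and 1339 and 1296 at 1.5-fold. With normexp background correction and loess they became 50 and 69, and with outlying local backgrounds replaced before that step 123 and 57; the cause was not tested. Under these settings SMARCA4 gave -1.86 (normexp) and EP300 0.136 and 0.223. Of 62 named genes past 2-fold, 20 remained past it under normexp and 38 with the outlying backgrounds replaced, and 59 with the sample channel alone. Of all 283 genes past 2-fold, 32 remained past it under normexp and 67 changed sign. With the outlying backgrounds replaced 78 remained and 15 changed sign, and with the sample channel alone 269 remained and 1 changed sign.

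Under normexp the sign turned, to values near 0, for KLRK1 (0.142), BTK (0.141), SAMD9L (0.220), TMEM255A (0.0119), PLAC1 (0.0365), IFIT3 (0.0116), EGR2 (0.0265), EGR3 (0.0848), ITGB8 (0.0593) and COL3A1 (0.0418). With the outlying backgrounds replaced, 0 of the 62 named genes past 2-fold changed sign. CBX2 turned to -0.209 with the sample channel alone. The correlation with HEK293T was 0.347 under normexp, 0.198 with outlying backgrounds replaced, 0.123 with the sample channel alone, 0.232 with both channels over 2-fold the background, 0.195 with the sample channel well above background and 0.0534 without a filter. Signal over background limits EP300 and the genes given as bounds.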
